A study of Homo sapiens with 3 samples.

Results

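The 42 genes described here are immediate early response genes, taken by their symbols from a table of 26485 gene entries, in which all 42 were found. They cover the EGR, AP-1 and NR4A transcription factors, the IER proteins, phosphatases and other inhibitors of signalling, proteins of mRNA decay and growth arrest, KLF factors with MYC, HES1, SRF and others, and secreted or cytoskeletal products. Their polyadenylated RNA was measured in CAMA1, a human line of estrogen receptor positive breast cancer cells with an amplified FGFR1, which encodes a receptor of fibroblast growth factors. The data form 1 group of 3 libraries, replicates 1, 2 and 3, called biological replicates by the labels and all labelled as controls. All cells were of low passage, grown in dishes and kept for 48 h in medium without estradiol, and the labels give no genotype, stimulus or drug to 1 library that another lacks. The groups of the study therefore give no contrast, and the question asked here was which of the 42 genes differed between libraries more than other genes of like level. Nothing in the labels says whether the dishes were handled, harvested or sequenced together, so every p-value below measures the spread of these 3 libraries alone. CAMA1 is 1 cell line, and what it shows is not a property of breast cancers in general.

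Immediate early genes are transcribed within minutes of a stimulus, such as serum, a growth factor, stretch, a change of medium or stress, without new protein synthesis. Receptor tyrosine kinases reach them through RAS and ERK, whose ETS-domain targets act with serum response factor at the CArG box of the serum response element, and cAMP and calcium signals reach them through CREB at the cAMP response element. Their transcripts are short-lived, and several of their products, such as dual-specificity phosphatases and the TTP family of mRNA decay proteins, end the response that made them. In estrogen receptor positive breast cancer cells, growth factors and estradiol both raise genes of the group.

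Levels between libraries are given as CPM, the gene's count scaled by the library's total and its TMM factor, and levels between genes as TPM, which are also divided by the deposited gene length. Libraries held 26473939, 26592335 and 30745412 counts, and scaling factors lay between 0.990 and 1.01. A gene with 0 counts may lie anywhere up to 3 counts, or 0.0986 to 0.113 CPM, by counting error alone. The markers of the cell type fitted the label: all 10 luminal epithelial markers were at 10 TPM or above, ESR1 at 75.9, 80.4 and 81.3 CPM in replicates 1, 2 and 3. None of 9 immune, 6 endothelial or 4 adipocyte markers reached 10 TPM, and 5, 4 and 3 of them had at most 3 counts in each library. Among 8 fibroblast markers COL1A2, DCN, LUM, PDGFRA and THY1 were at 0 counts in all libraries, while COL1A1 and COL3A1 passed 10 TPM, and 2 of 7 basal markers, ACTA2 and MYLK, did so. The summed CPM of the luminal list was lowest in replicate 1 (7870, 8730 and 9753), and that of the immune list was 8.78, 7.14 and 6.38. Replicate 3 stood apart in other genes. Of 15 proliferation genes 6 passed the test below, and of 11 NF-kB response genes 4, beside 1.29% of all genes tested. All of these were lowest in replicate 3, as were 100 of the 187 genes called over all genes tested. The part of these shifts in the results that follow was not tested.

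Each gene was tested for variation between the 3 libraries beyond the trend of edgeR's negative binomial dispersion, with Benjamini-Hochberg adjustment over 14453 genes and a threshold of 0.05. Of the 42 genes 37 had enough counts to be tested, and these 37 also had at least 10 counts in each library. The test called 17 of the 37 (45.9%), beside 187 of all 14453 genes (1.29%). The genes were taken up with a difference in early response between these libraries already known, so these shares describe the difference and are no independent evidence of it. All 17 were lowest in replicate 1, beside 73 of the 187 genes called over all genes tested. Genes both called and lowest in replicate 1 were thus 0.505% of all genes tested. In bulk RNA, fewer cells with the transcript and less of it per cell cannot be told apart. The called genes were EGR1, FOS, FOSB, JUN, JUNB, NR4A1, NR4A2, IER2, IER3, IER5, DUSP1, DUSP2, GADD45B, ZFP36, HES1, MYC and CYR61. Together the 42 genes took 0.258% of the counts of replicate 1, 0.437% of those of replicate 2 and 0.407% of those of replicate 3.

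Counted without a test, 27 of the 37 genes (73.0%) were lowest in replicate 1, beside 4735 of all genes tested (32.8%). A further 9 (24.3%) were lowest in replicate 3 and 1 (2.7%) in replicate 2, beside 39.8% and 27.4% of all genes tested. The highest library was replicate 2 for 24 genes (64.9%), replicate 3 for 11 (29.7%) and replicate 1 for 2 (5.41%), beside 27.5%, 39.8% and 32.7% of all genes tested. Ratios were formed with a prior count of 2. At least 2-fold higher CPM in replicate 2 than in replicate 1 was seen for 12 of the 37 genes, beside 0.159% of all genes tested, and in replicate 3 over replicate 1 for 11, beside 0.457%. These ratios share replicate 1, so a low value there raises both. Replicate 1 lay at least 2-fold below each of the other libraries for 9 of the 37, EGR1, FOS, NR4A1, FOSB, HES1, DUSP1, IER2, IER5 and CYR61, beside 0.0761% of all genes tested, or 11 genes, with RASD1 and SUSD5 as the others. In the other direction none of the 37 was at least 2-fold lower in replicate 2 than in replicate 1 (0.0969% of all genes), and MAFF alone was so in replicate 3 (0.761%). Between replicates 2 and 3, DUSP2 alone was at least 2-fold higher in replicate 3 (0.256%) and none was lower (0.643%). The median log2 ratio of the 37 genes was 0.64 for replicate 2 over 1, 0.49 for replicate 3 over 1 and -0.20 for replicate 3 over 2, while the medians over all genes were within 0.01 of 0. The SD of the log2 ratios over all genes was 0.20, 0.31 and 0.29 for these pairs.

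**Figure D1:**
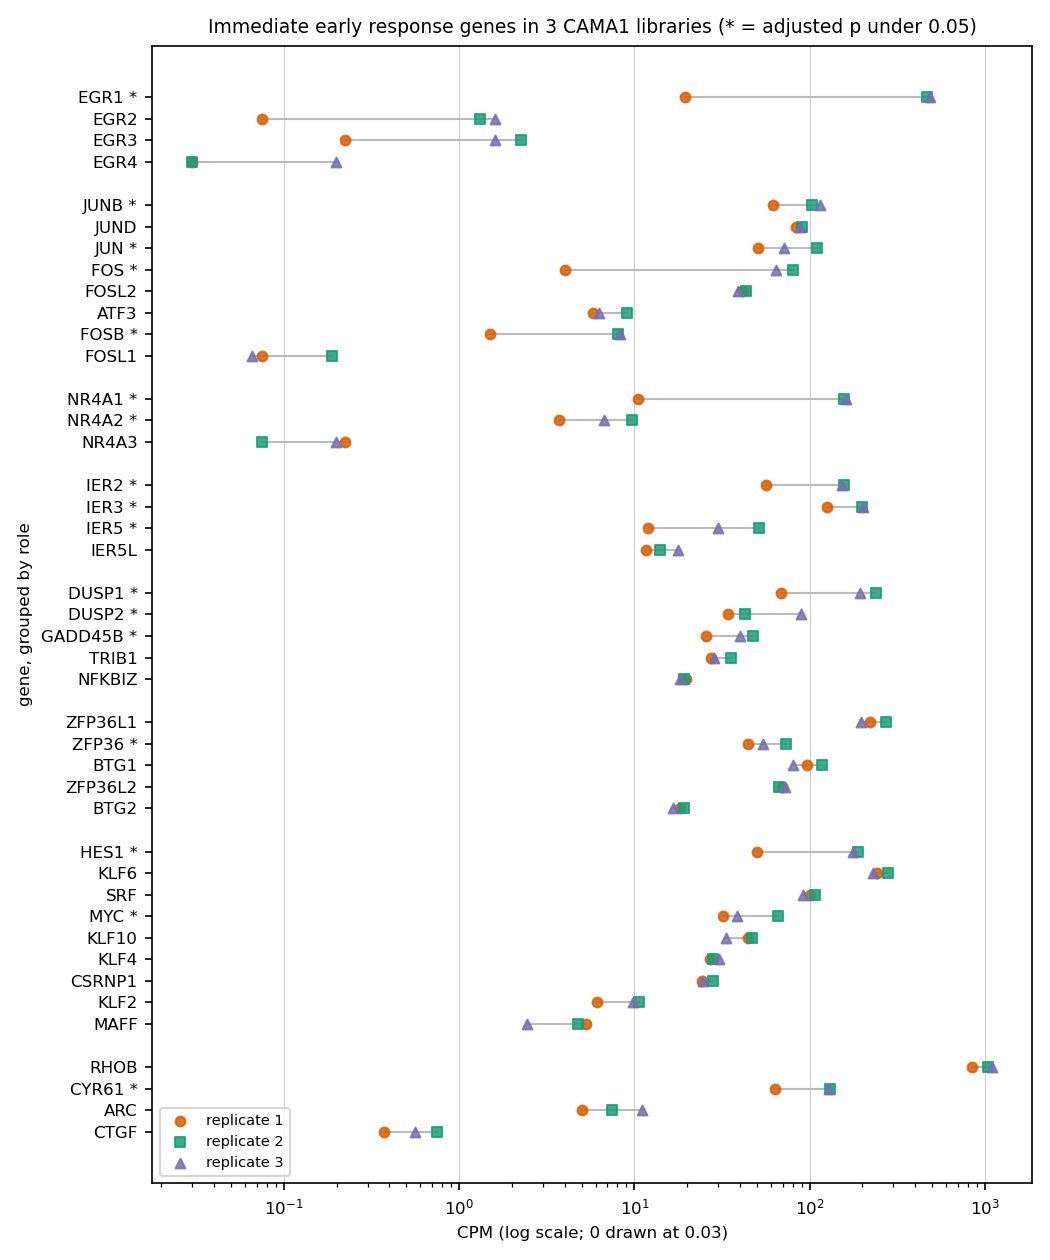
CPM of the 42 immediate early genes in each library on a log axis, grouped by role and ordered by mean level, with a line joining the lowest and highest library and a value of 0 drawn at 0.03. Of the genes marked with an asterisk (adjusted p under 0.05, 17 genes) all have replicate 1 as the lowest point, and EGR1, FOS and NR4A1 show the widest gaps.

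Among the EGR genes, zinc finger transcription factors that bind GC-rich sites, EGR1 (chr5:138465492-138469315, plus strand) had the largest difference of all 14453 genes. Its CPM was 19.4 in replicate 1, 465 in replicate 2 and 486 in replicate 3. Replicates 2 and 3 thus lay close together and replicate 1 far below both, with log2 ratios of 4.58 ± 0.06 and 4.65 ± 0.06 (counting SE) and an edgeR adjusted p of 2.85e-135. Its mean level was 271 ± 220 TPM (SD, n = 3), and by TPM it ranked 25 of the 42 genes in replicate 1 and 2 in both other libraries. EGR2, EGR3 and EGR4 were below the filter on low counts. EGR2 had 2, 35 and 49 counts and EGR3, which is induced with EGR1 in many cells, had 6, 60 and 49, so both were lowest in the same library as EGR1. With no filter, edgeR gave them adjusted p of 4.24e-06 and 3.08e-05 over 20473 genes. EGR4 had 0, 0 and 6 counts and was near the detection limit in all libraries.

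AP-1 is a dimer of FOS and JUN family proteins, or of these with ATF proteins, and 4 of 7 tested subunits were called. FOS (chr14:75278778-75282234, plus strand) had 4.04, 80.3 and 64.5 CPM, log2 ratios against replicate 1 of 4.29 ± 0.14 and 3.97 ± 0.14 (counting SE) and an edgeR adjusted p of 2.53e-94. FOSB, the close relative of FOS, had 1.5, 8.05 and 8.25 CPM and an edgeR adjusted p of 2.54e-08. The FOS genes with a wide spread thus split replicate 1 from the other two. Of the JUN genes, JUNB also had similar levels in replicates 2 and 3, at 61.8, 103 and 114 CPM (edgeR adjusted p 1.03e-05). JUN (chr1:58780791-58784113, minus strand) was placed differently, with 51.0, 110 and 71.7 CPM, so that replicate 3 lay nearer to replicate 1 (edgeR adjusted p 1.40e-08). JUND and FOSL2, subunits with a steady level in many cells, were not called, at 83.9, 90.1 and 87.8 CPM for JUND and 41.5, 43.2 and 39.1 CPM for FOSL2. ATF3, a stress-induced partner of JUN proteins, was not called either, at 5.79, 9.10 and 6.28 CPM. FOSL1 had 2, 5 and 2 counts and was not tested.

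The NR4A genes code for orphan nuclear receptors that act without a known hormone. NR4A1 (chr12:52022832-52059507, plus strand) had 10.5, 156 and 162 CPM, again with replicate 1 far below a close pair. Its log2 ratios were 3.88 ± 0.09 and 3.93 ± 0.09 (counting SE), with an edgeR adjusted p of 5.34e-109. Its deposited counts were not whole numbers, and where the fractions came from was not tested. NR4A2 was lower in level and spread more evenly, at 3.70, 9.70 and 6.70 CPM (edgeR adjusted p 0.0165), and its call was lost with the dispersion trend of DESeq2 (adjusted p 0.0816). NR4A3 had 6, 2 and 6 counts and was not tested.

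Of the IER genes, named for the immediate early response, 3 of 4 were called. IER2 had 56.1, 156 and 153 CPM (edgeR adjusted p 3.99e-20), and IER5, a gene known to be induced by stress and to act on heat shock factor, 11.9, 51.1 and 29.9 CPM (edgeR adjusted p 1.10e-22). IER2 thus had the same pattern as EGR1 at a smaller size, whereas IER5 was spread over all 3 libraries. IER3, a regulator of cell survival, had 125, 198 and 201 CPM (edgeR adjusted p 0.00110). Its deposited length of 7440 bases covers 6 sequences, against 1240 bases on the main chromosome, so its level of 62.1 TPM is uncertain, and it was 361 TPM with the shorter length. IER5L had 11.6, 14.0 and 17.8 CPM and was not called (edgeR adjusted p 0.656).

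Inhibitors of signalling followed with 3 of 5 called. DUSP1 (chr5:172768090-172771200, minus strand), a nuclear phosphatase that switches off MAP kinases, had 68.7, 240 and 194 CPM and a mean of 219 ± 115 TPM (SD, n = 3). Its edgeR adjusted p was 1.06e-26. DUSP2, a phosphatase of the same family, had 34.2, 43.0 and 89.8 CPM, so replicate 3 stood above the other two (edgeR adjusted p 1.04e-15). GADD45B, which activates stress kinases and slows the cell cycle, had 25.6, 47.7 and 40.1 CPM (edgeR adjusted p 0.000460). TRIB1, a pseudokinase, had 27.2, 35.6 and 28.3 CPM, and NFKBIZ, a nuclear regulator of NF-kB, had 19.7, 19.2 and 18.2 CPM. Neither was called. NFKBIZ shares exon bases with NXPE3 on its strand, so how reads from these bases were assigned is uncertain. Its deposited counts were whole numbers in all libraries.

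Of the genes of mRNA decay and growth inhibition, 1 of 5 was called. ZFP36, which codes for TTP, the protein that binds AU-rich elements and hastens the decay of their transcripts, had 44.4, 73.7 and 53.8 CPM (edgeR adjusted p 0.00384). Its paralogs differed less: ZFP36L1 had 220, 271 and 196 CPM (edgeR adjusted p 0.292) and ZFP36L2 69.1, 66.6 and 72.6 CPM. BTG1 and BTG2, antiproliferative proteins that bind the deadenylase complex, were not called, at 96.5, 117 and 80.2 CPM and at 18.3, 19.2 and 16.6 CPM. For BTG1 (edgeR adjusted p 0.0990) replicate 3, not replicate 1, was the lowest library, and its exons overlap those of C12orf79.

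Among the 9 remaining transcription factors, HES1 and MYC were called. HES1 (chr3:194136142-194138612, plus strand), a repressor best known as a Notch target, had 50.1, 189 and 177 CPM, with log2 ratios of 1.91 ± 0.04 and 1.82 ± 0.04 (counting SE) and an edgeR adjusted p of 1.27e-32. Of the 19 other genes in the Notch list 12 were tested and 0 passed, beside 1.29% of all genes tested. At that share a list of this size would mostly hold no called gene. The median log2 ratios of the 12 against replicate 1 were 0.01 and -0.08. Among the 7 below the filter, DLL1 had 6, 15 and 18 counts. MYC, a driver of growth and of ribosome production, had 32, 66.1 and 38.4 CPM (edgeR adjusted p 2.66e-07). Like JUN, MYC was high in replicate 2 alone. SRF, the factor that binds the CArG box, had 101, 107 and 91.8 CPM and was not called. The KLF genes, zinc finger factors of growth arrest and differentiation, were not called: KLF6 had 241, 281 and 229 CPM, KLF4 27.1, 28.0 and 30.3 CPM, KLF10 44.5, 46.6 and 33.1 CPM, and KLF2 6.13, 10.6 and 9.79 CPM (edgeR adjusted p 0.446 for KLF2). CSRNP1 was likewise close in all libraries, at 24.2, 28.2 and 24.5 CPM. MAFF, a small MAF protein, had 5.31, 4.74 and 2.43 CPM and was not called (edgeR adjusted p 0.304).

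Of the secreted, cytoskeletal and synaptic products, CYR61 was called. CYR61 (chr1:85580761-85583965, plus strand), a matricellular protein and a target of both SRF and YAP, had 63.2, 130 and 129 CPM (edgeR adjusted p 1.18e-09). CTGF, the related matricellular protein, had 10, 20 and 17 counts, so its 0.374 to 0.752 CPM carry a wide counting error. CTGF, also a YAP target, was lowest in replicate 1 too, with log2 ratios of 0.89 ± 0.56 and 0.50 ± 0.58 (counting SE), and was not called. In a list of 8 further genes of YAP and TEAD 0 passed the test (1.29% of all genes tested), with medians of -0.03 and -0.15 in log2 against replicate 1. RHOB, a short-lived small GTPase, was the most abundant of the 42 genes by TPM in every library, at 1109 ± 132 TPM (SD, n = 3). It had 841, 1042 and 1097 CPM and was not called (edgeR adjusted p 1.0). Without RHOB the summed CPM of the genes was 1712, 3332 and 3019. ARC, a gene known for induction by neuronal activity, had 5.01, 7.48 and 11.0 CPM (edgeR adjusted p 0.0635).

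**Figure D2:**
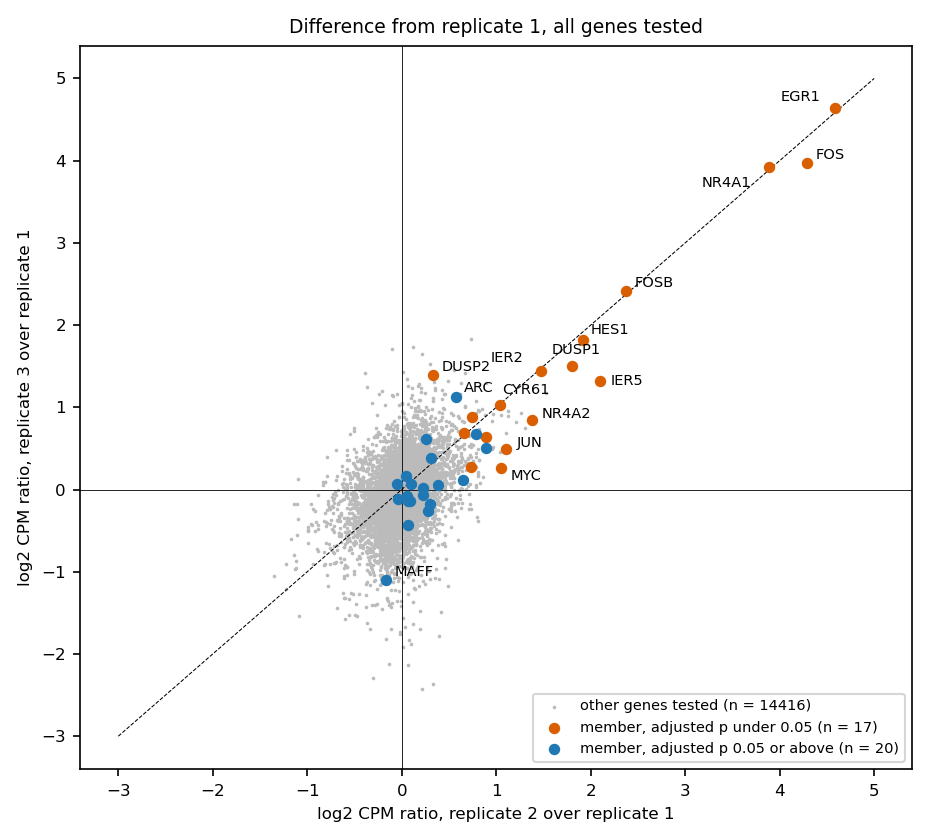
Log2 CPM ratio of replicate 2 over replicate 1 (x axis) against that of replicate 3 over replicate 1 (y axis) for all genes tested, with equal ratios on the dashed line; both axes share replicate 1, so points tend toward the line by construction. EGR1, FOS and NR4A1 lie near 4 on both axes, DUSP2 and ARC mainly along y, and JUN and MYC mainly along x.

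Each pair of libraries was then tested alone, which compares those libraries only. Between replicates 1 and 2, 30 of 14607 genes were called (0.205%), of which 17 were immediate early genes, all higher in replicate 2. They made up 56.7% of the genes called. KLF2 was called here (edgeR adjusted p 0.00201), and DUSP2 was not (edgeR adjusted p 0.913). Between replicates 1 and 3, 61 of 14638 genes were called (0.417%), 11 of them immediate early genes and all 11 higher in replicate 3: EGR1, FOS, FOSB, JUNB, NR4A1, IER2, IER5, DUSP1, DUSP2, CYR61 and HES1. JUN, MYC, NR4A2, IER3, ZFP36 and GADD45B were not called in that pair. IER3 was 1.61-fold higher in replicate 3 than in replicate 1, and 1.58-fold higher in replicate 2. The others of these genes had smaller folds in replicate 3 than in replicate 2. Log2 ratios over all genes spread more for replicate 3 over 1 (SD 0.31) than for replicate 2 over 1 (0.20). A missing call in that pair thus need not mean a smaller difference. Between replicates 2 and 3, with replicate 1 left out, 95 of 14586 genes were called (0.651%) and 5 immediate early genes were among them. DUSP2 was higher in replicate 3 (edgeR adjusted p 3.74e-07). JUN, IER5, MYC and BTG1 were higher in replicate 2 (edgeR adjusted p 0.0133, 0.00788, 0.00277 and 0.0396). The calls of EGR1, FOS, FOSB, JUNB, NR4A1, NR4A2, IER2, IER3, DUSP1, ZFP36, GADD45B, CYR61 and HES1 were therefore absent without replicate 1.

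By the smaller of the ratios against replicate 1, the 9 genes named above held ranks 1 to 8 and 11 among all 14453 genes. The 10 protein-coding genes outside the group with the largest such value and a mean of at least 5 CPM were RASD1, RHOV, NR1H3, TMEM187, PSCA, ADAP1, TSC22D3, DNAH1, KRT24 and LRFN3. RASD1, a RAS-like protein known for induction by glucocorticoids, had 5.91, 17.1 and 13.4 CPM (edgeR adjusted p 1.12e-05), and RHOV, an atypical small GTPase, 22.9, 54.9 and 43.8 CPM (edgeR adjusted p 5.28e-09). TSC22D3, known as a glucocorticoid-induced leucine zipper, was the only other one of the 10 to be called (edgeR adjusted p 0.0171), with log2 ratios of 0.39 and 0.64. Likeness is here the size and sign of the ratios over 3 libraries and nothing more.

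Other genes of the pathway were taken from lists, which were not tested against the 42 genes. Of 32 other primary response genes 29 were tested and 5 called, beside 1.29% of all genes tested. ID1, ID2 and BHLHE40 were lowest in replicate 1, and IRF1 and EDN1 were lowest in replicate 3. Of the 29, 13 were lowest in replicate 1 (32.8% of all genes tested), with medians of 0.05 and -0.07 in log2 against it. ID1, an inhibitor of helix-loop-helix factors, had 106, 144 and 237 CPM, so like DUSP2 it was highest in replicate 3. CDKN1A, the p53 target that arrests the cell cycle, was also highest there, at 55.8, 64.0 and 127 CPM (edgeR adjusted p 6.28e-13), and was the only called gene of 9 tested in the p53 list. Of the genes of ERK feedback and the delayed early response, 0 of 13 tested passed, beside 1.29% of all genes tested. CCND1 had 424, 429 and 425 CPM and SPRED2 78.1, 77.6 and 76.6 CPM. DUSP5, with 19.5, 24.4 and 27.5 CPM, and EPHA2, with 9.53, 10.5 and 13.2 CPM, were lowest in replicate 1. PHLDA1 had 31, 28 and 12 counts and IL12A 42, 36 and 16 counts (edgeR adjusted p 0.202 and 0.128). Both were lowest in replicate 3. In this list 5 of the 13 were lowest in replicate 1 (32.8% of all genes tested), with medians of 0.06 and -0.03 in log2 against it. None of 19 genes of the RAS-ERK cascade, 14 SRF cofactors and CREB factors, 11 SRF-dependent actin genes, 12 stress genes, 10 heat shock genes or 12 housekeeping genes passed. With 1.29% of all genes tested called, any 1 list of such a size would mostly hold no called gene. The medians of these 6 lists in log2 against replicate 1 ran from 0.01 to 0.10 for replicate 2 and from -0.12 to 0.17 for replicate 3. MALAT1 and NEAT1, long RNAs held in the nucleus, summed to 12061, 10338 and 10217 CPM and were not called.

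**Figure D3:**
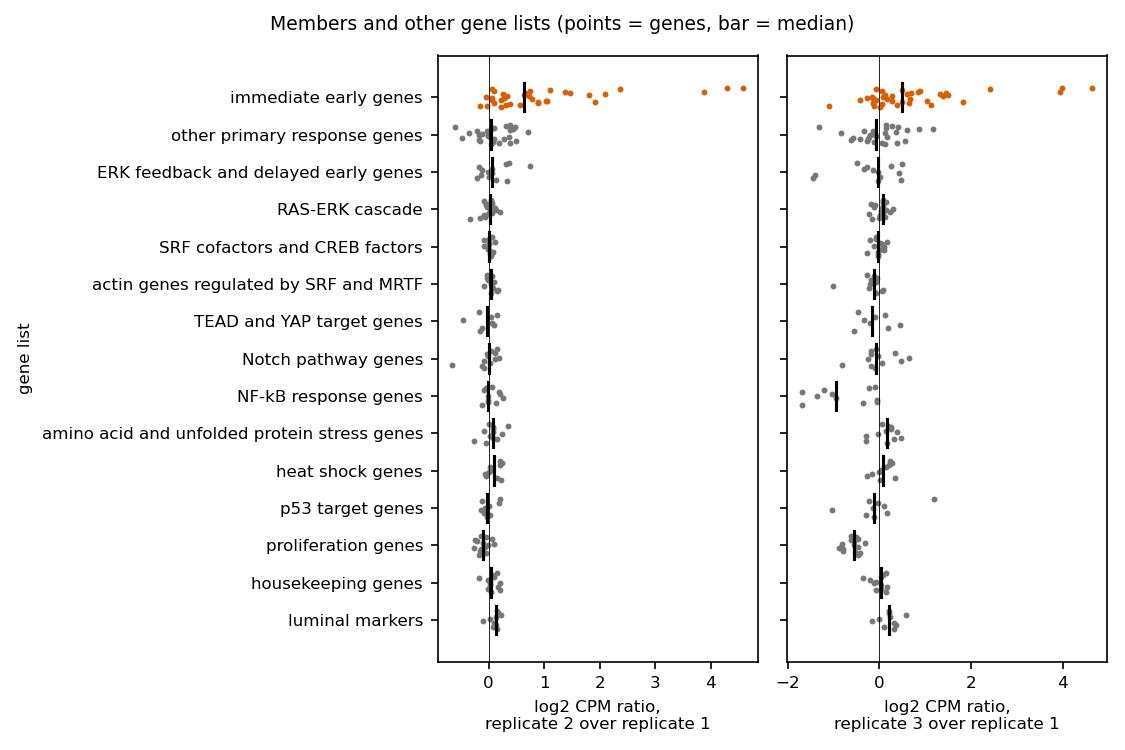
Log2 CPM ratios of replicate 2 (left panel) and replicate 3 (right panel) over replicate 1 for the tested genes of each list, points being genes and bars medians. The immediate early genes have medians of 0.64 and 0.49, while proliferation and NF-kB response genes lie below 0 in the right panel, at -0.55 and -0.94.

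Signal-responsive elements next to the start are the textbook feature of the group. Promoters were found for 8 of the genes with 2-fold differences in both ratios against replicate 1. Those of 5 are shown, chosen because they hold such elements. The RefSeq promoter table (GRCh38.p14) held 31 of the 42 genes, and the 250 bases before the start were searched on both strands. A CArG box was found in 2 of 31, EGR1 and SRF, beside 1.14% of 27305 promoters and 0.942% of 10405 promoters of tested genes. The cAMP response element TGACGTCA was found in 3 of 31, JUND, DUSP1 and MAFF (1.77% and 2.81%), and its first part TGACGT, which the full element contains, in 11 of 31 (7.42% and 10.1%). TGACGT was held by 5 of the 13 called genes whose promoter was found, and by 4 of 15 tested genes that were not called. TATAAA was found in 7 of 31 (11.1% and 5.56%), the ETS core TTCCGG in 5 (14.8% and 24.3%), and neither the longer ETS motif CCGGAAGT (3.64% and 6.94%) nor the EGR motif GCGTGGGCG (0.711% and 1.17%) in any. These matches are letters in the window and not measured binding sites. NR4A1, IER2 and IER5, also with 2-fold differences, held neither a CArG box nor TGACGT, and their promoters are not printed. Elements farther than 250 bases before the start were not searched for, so a gene without a match may still hold one upstream. The EGR1 promoter follows by the rule that asked for a called gene with a CArG box, and those of HES1, DUSP1, FOS and FOSB were added after the matches were seen, as the other genes with 2-fold differences against replicate 1 that hold TGACGT. Each is printed 5′ to 3′ on the strand of the gene and ends at the base before the RefSeq start, and capitals mark CArG boxes and TGACGT, or ACGTCA where it lies on the other strand. They lie at chr5:138465229-138465478 (EGR1, plus), chr3:194135898-194136147 (HES1, plus), chr5:172771196-172771445 (DUSP1, minus), chr14:75278578-75278827 (FOS, plus) and chr19:45467746-45467995 (FOSB, plus). The gene positions given earlier use the exon coordinates deposited with the counts, whose starts differ from RefSeq. The windows of FOS, HES1, DUSP1 and FOSB therefore reach into those bounds.
EGR1: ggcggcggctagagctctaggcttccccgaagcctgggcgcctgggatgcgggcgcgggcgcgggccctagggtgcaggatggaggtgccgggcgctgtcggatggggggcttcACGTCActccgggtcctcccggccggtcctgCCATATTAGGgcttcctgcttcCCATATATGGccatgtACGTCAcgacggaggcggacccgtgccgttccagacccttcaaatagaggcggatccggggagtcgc
HES1: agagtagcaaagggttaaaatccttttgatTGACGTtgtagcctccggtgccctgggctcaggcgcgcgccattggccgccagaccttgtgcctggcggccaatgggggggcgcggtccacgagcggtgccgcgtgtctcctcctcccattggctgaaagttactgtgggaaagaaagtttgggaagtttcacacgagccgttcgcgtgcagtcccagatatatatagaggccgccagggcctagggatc
DUSP1: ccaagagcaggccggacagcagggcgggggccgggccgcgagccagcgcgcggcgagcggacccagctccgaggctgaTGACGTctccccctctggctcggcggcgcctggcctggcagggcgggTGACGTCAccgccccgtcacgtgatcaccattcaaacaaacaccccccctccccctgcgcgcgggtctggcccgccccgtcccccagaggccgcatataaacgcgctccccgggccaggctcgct
FOS: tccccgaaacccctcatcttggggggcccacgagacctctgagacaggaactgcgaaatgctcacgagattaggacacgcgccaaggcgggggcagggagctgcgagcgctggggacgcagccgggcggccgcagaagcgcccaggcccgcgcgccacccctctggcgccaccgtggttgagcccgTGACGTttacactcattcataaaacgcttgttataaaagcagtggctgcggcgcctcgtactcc
FOSB: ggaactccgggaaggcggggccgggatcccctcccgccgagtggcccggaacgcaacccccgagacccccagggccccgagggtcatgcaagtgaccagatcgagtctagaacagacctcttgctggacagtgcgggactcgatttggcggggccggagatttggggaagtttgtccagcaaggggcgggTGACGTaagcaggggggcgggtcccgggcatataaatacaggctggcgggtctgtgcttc

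In EGR1 the CArG boxes span bases 105 to 96 and 83 to 74 before the start, with TGACGT on the other strand at 136 to 131 and 67 to 62. In FOS and FOSB the single match lies at 64 to 59 and at 60 to 55, so the matches nearest the start in EGR1, FOS and FOSB begin within 10 bases of one another. This position is not particular to called genes: FOSL2, which was not called, has its match at 66 to 61. DUSP1 has 3 matches, at 172 to 167, 125 to 120 and 123 to 118, the latter pair lying on opposite strands of a full TGACGTCA, and HES1 has 1 at 220 to 215. GC content was 68.4% at the median both in called and in other tested genes of the group, against 64.8% over the promoters of protein-coding genes tested.

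By their medians the genes were compact in the exon coordinates deposited with the counts. Their median genomic span was 4321 bases, against 28412 bases for 12399 protein-coding genes tested, and they had a median of 4 exon blocks against 10. Spans ran from 1352 to 55444 bases, and those of ATF3, NR4A3, NR4A1 and NFKBIZ were above the median of protein-coding genes. JUN, JUNB, JUND, IER5, IER5L and RHOB have a single exon. The median span was 3205 bases for the 17 called genes and 6373 bases for the 20 tested genes that were not called. The pentamer ATTTA, the core of AU-rich elements, occurred at a median of 2.33 per kb of 3′ untranslated region in the 42 genes and 1.68 in protein-coding genes tested. Among the called genes the median was 4.0 per kb and among the others tested 2.22. These are descriptions without a test, and the ranges overlapped, from 0 to 8.4 per kb in called genes and from 0 to 4.17 in the others.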

How the data were processed

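Polyadenylated RNA of 3 CAMA1 cultures was sequenced from stranded libraries on a NextSeq 500, per the labels' protocols, from RNA with an integrity number of at least 8. The authors deposited an expected count for each gene and library; 83.1% of the non-zero values were whole within 1e-08. The submitters' processing notes name hg38, TopHat, Subread and featureCounts; versions, strand and multi-mapping settings are not given in the sources used here. Because some values are fractional, counts of overlapping or near-identical genes are uncertain.

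Counts were rounded and analysed with edgeR 4.0.16 in R 4.3.3: TMM scaling, the filterByExpr filter, an intercept-only fit and a chi-square test per gene against the trended dispersion, whose common value is a coefficient of variation of 8.8%. Adjustment was by Benjamini-Hochberg over all genes tested. Ratios used a prior count of 2, and TPM used the deposited lengths. DESeq2 1.42.0 size factors and dispersion trend, library totals, other filters, Poisson and common dispersions, a 1.5-fold threshold and leaving out each library were alternatives. Gene positions, spans and exon blocks came from the exon coordinates deposited with the counts. The protein-coding class and the 3′ untranslated regions came from the GENCODE annotation on GRCh38, and the promoters from RefSeq.

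All 42 members are named. Of other lists, the called genes or the highest by TPM are named, with a few lower ones such as PHLDA1, IL12A and DLL1. Outside them, the 10 protein-coding genes with a mean of at least 5 CPM and the largest smaller ratio against replicate 1 are named. The members and lists were chosen with earlier results of these data known. Further lists without a called gene covered the Notch pathway, YAP targets and housekeeping.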

Additional observations from a re-analysis of the deposited data

How the results depend on the processing

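The count of 17 called genes was 30 with a Poisson test, in which 6017 of all genes were called in place of 187, and 283 of all genes were called with a common dispersion. Leaving out 1 library moved the count of called genes of the group over 5 to 17 (5 without replicate 1, 11 without replicate 2 and 17 without replicate 3) and that of all genes over 30 to 95. With a 1.5-fold threshold in place of 2-fold, 19 genes passed for replicate 2 over 1, 17 for replicate 3 over 1 and 14 for both, beside 0.996%, 2.45% and 0.381% of all genes tested. Under the other scalings, filters and dispersions 16 to 19 genes of the group were called, and with a trend estimated without the members ARC and BTG1 were added. No log2 ratio of the group that was 2-fold or more in the main setting changed sign. No named gene called under both settings changed its lowest library where that library was kept. Smaller ratios were not checked for sign. No paired analysis was possible because the libraries form 1 group. Depth limits EGR2, EGR3, EGR4, FOSL1, NR4A3 and CTGF, and in 3 libraries a single one decides most calls.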
